A study of Mus musculus with 30 samples.

Results

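Most Slc25 genes encode carriers that move metabolites, nucleotides, cofactors and ions across the inner mitochondrial membrane. Transcripts of the family were followed here in mouse liver after insulin or phosphate-buffered saline (PBS). The set holds every gene of the deposited expression table whose symbol is Slc25a followed by a number, 44 of 29117 genes; 1 further row matching the pattern is not analysed here. Of the 44, 35 passed the filter on low values (at least 1 FPKM in at least 3 of the 30 libraries) and were tested among 13589 genes, and the other 9 are given by their levels only. FPKM is a fragment count divided by transcript length and by the library's mapped fragments.

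The 10 groups were insulin at points 1 to 5 and PBS at points 1 to 5, with 3 libraries each. All mice were C57BL/6J, an inbred strain, 10 weeks old and fasted for 12 to 16 h, and received an intraperitoneal injection of human insulin at 0.7 U/kg or of PBS. The left liver lobe was taken at 5 points within 4 h, which the labels number without giving times; no order in time is assumed, and no group was uninjected. The libraries were poly(A) RNA. The submitters call the 3 libraries of a group biological triplicates without saying that each came from its own mouse, so the p-values measure the spread between these samples. Insulin libraries were run on lanes 1 and 2 and PBS libraries on lanes 3, 4 and 5, and treatment and lane therefore cannot be told apart.

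A typical carrier is a small protein of repeated membrane-spanning units. It opens to the matrix and to the intermembrane space in turn, and most carriers exchange one solute for another. In hepatocytes these exchanges link cytosolic with mitochondrial steps of gluconeogenesis, urea synthesis, fatty acid oxidation and lipogenesis. The members divide by substrate into carriers of nucleotides and phosphate, of cofactors and acyl groups, of di- and tricarboxylates, of amino acids and of iron, with relatives of the uncoupling proteins, an outer membrane member and carriers listed here without a substrate.

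The sequencing depth, read from how finely low values are stepped, was about 19.95 to 36.4 M reads per insulin library and 20.6 to 41.0 M per PBS library. Across the genes tested, Pearson's r between replicate libraries was 0.966 to 0.983. The summed level of 10 hepatocyte markers was 40016 to 56647 FPKM in insulin libraries and 45263 to 58785 FPKM in PBS libraries, and 0 of the 10 lay under 1 FPKM throughout. A gene rose or fell below when its insulin and PBS libraries of the same point differed at an adjusted p under 0.05 in limma, adjusted over all 13589 genes. Differences are insulin minus PBS on the log2(FPKM + 1) scale, which understates the change of low genes, with their standard error (SE) and 3 libraries per group.

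The member that stood furthest from PBS was Slc25a25, the ATP-Mg/phosphate carrier that adjusts the matrix pool of adenine nucleotides and is gated by calcium. Because it was the only member that passed the test at point 2, and RefSeq gives it 3 start sites, the 250 bases before each start are shown, read on the minus strand of GRCm38.p6 from 5′ to 3′. The capitals mark the palindrome TGACGTCA, the cAMP response element, which binds CREB family factors.
chr2:32424067-32424316: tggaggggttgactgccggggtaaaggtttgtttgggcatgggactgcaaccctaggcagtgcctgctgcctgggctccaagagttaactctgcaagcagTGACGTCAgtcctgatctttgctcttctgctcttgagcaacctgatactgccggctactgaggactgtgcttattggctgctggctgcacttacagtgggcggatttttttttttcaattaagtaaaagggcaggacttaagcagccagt
chr2:32431152-32431401: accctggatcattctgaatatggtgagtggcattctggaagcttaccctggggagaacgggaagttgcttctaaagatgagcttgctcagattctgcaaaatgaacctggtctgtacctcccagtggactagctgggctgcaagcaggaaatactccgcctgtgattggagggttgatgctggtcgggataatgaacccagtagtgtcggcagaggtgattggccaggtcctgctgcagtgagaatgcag
chr2:32451471-32451720: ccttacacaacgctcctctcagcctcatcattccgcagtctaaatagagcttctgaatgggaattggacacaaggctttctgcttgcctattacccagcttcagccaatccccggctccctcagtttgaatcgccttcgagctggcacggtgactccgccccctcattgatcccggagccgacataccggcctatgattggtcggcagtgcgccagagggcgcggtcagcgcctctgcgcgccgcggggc
On the minus strand the window listed first belongs to the most downstream of the 3 starts. The element lay in that window, beginning 150 bases before the start, and in neither of the others. It was found in 508 of 32851 RefSeq windows of that length before mouse genes (1.55%), and in 2 of the 43 windows of the 34 members that had one, those of Slc25a25 and Slc25a36. A second motif searched, the E-box CACGTG, was in 1978 windows (6.02%) and in 7 of the 43 windows of members, none of them a window of Slc25a25. Both motifs were chosen with the results known, and both read the same on either strand. A match is a description and not a binding site, and FPKM per gene does not show which start was used.

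**Figure D1:**
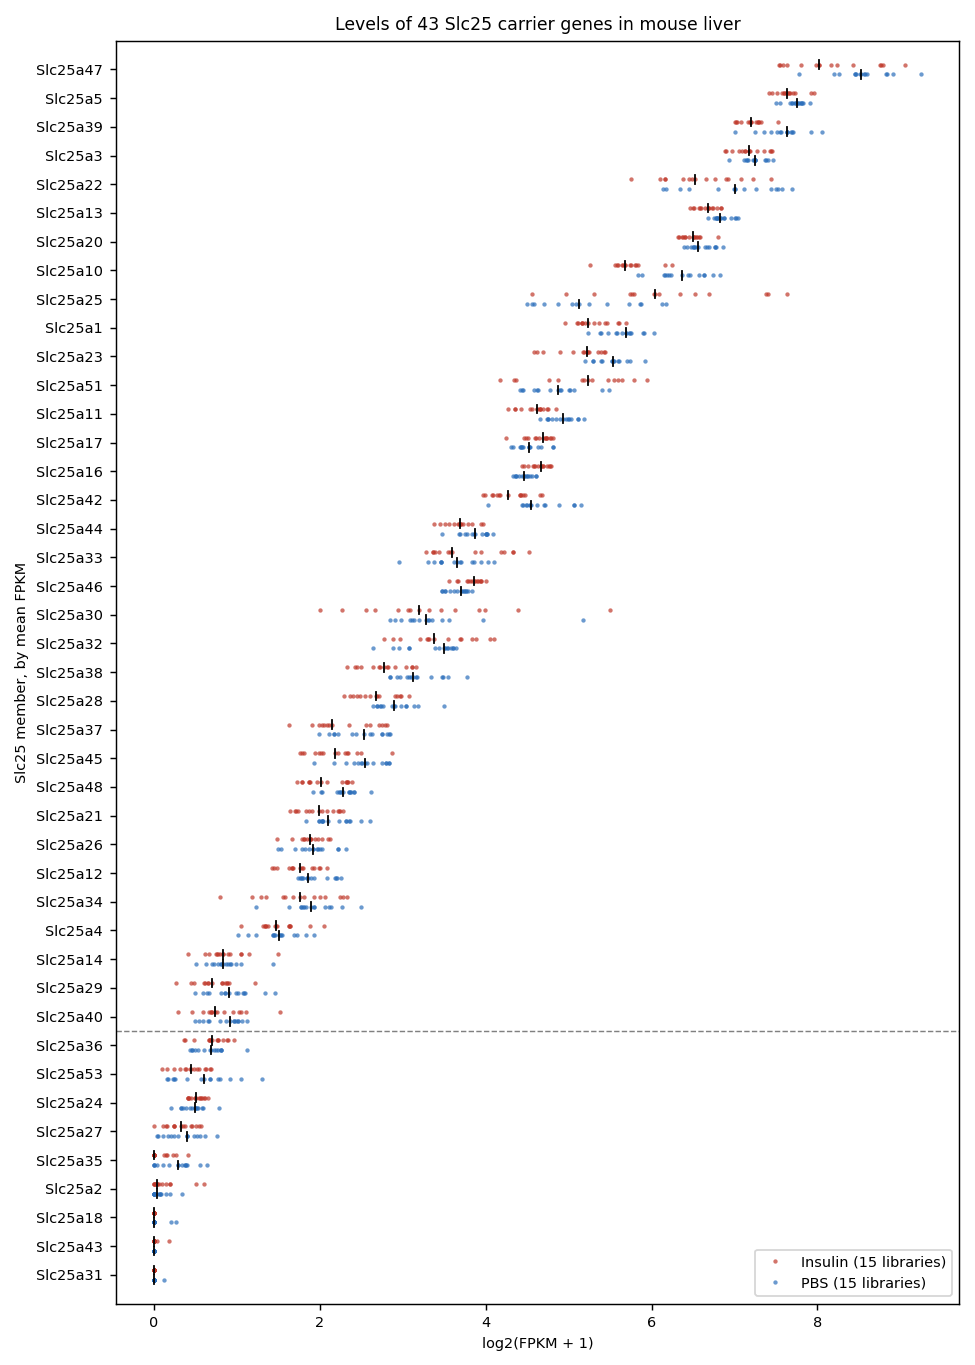
Each point is a library's log2(FPKM + 1) for a carrier (43 are drawn), ordered by mean FPKM, with the 15 insulin libraries above the 15 PBS libraries and a black tick at each median. Slc25a47, at a mean of 342 FPKM, stands at the top, and the 9 members below the dashed line did not pass the filter.

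The carriers differed widely in level on the FPKM scale, which is per transcript length, and a few genes made up most of the total. Slc25a47, a carrier found mainly in liver, had the highest mean at 342 FPKM, above 98.6% of the genes tested. It was followed by Slc25a5 (ADP/ATP carrier 2, the exporter of mitochondrial ATP) at 207 FPKM and Slc25a39 (required for glutathione import) at 170 FPKM. The phosphate carrier Slc25a3 averaged 148 FPKM, the glutamate carrier Slc25a22 averaged 118 FPKM and the liver aspartate-glutamate carrier Slc25a13, part of the malate-aspartate shuttle, averaged 108 FPKM. These were the 6 members at 100 FPKM or more. The top 10 were completed by the carnitine-acylcarnitine carrier Slc25a20 at 92.8 FPKM, the dicarboxylate carrier Slc25a10 at 67.7 FPKM, Slc25a25 at 62.0 FPKM and the citrate carrier Slc25a1 at 44.3 FPKM. Neighbours in this order overlapped: the 30 libraries of Slc25a5 ran from 170 to 247 FPKM and those of Slc25a39 from 127 to 265 FPKM. In all, 14 members averaged 10 to 100 FPKM, the last 4 of the top 10 among them, 12 averaged 1 to 10 FPKM and 12 less than 1 FPKM.

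The 44 members summed to 1281 FPKM in the lowest insulin library, 1528 FPKM in the median one and 1855 FPKM in the highest, against 1425, 1773 and 2169 FPKM in PBS libraries. The ranges of the sum overlapped. The 10 highest members held 79.7% to 84.9% of it in insulin libraries and 80.9% to 87.8% in PBS libraries. Slc25a47 alone held 13.5% to 30% in insulin libraries and 15.3% to 28% in PBS libraries.

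Paralogs differed widely in level. Slc25a5 exceeded Slc25a4, the ADP/ATP carrier of heart and muscle, which averaged 1.87 FPKM, and Slc25a31, the germ cell ADP/ATP carrier, which had a value in 1 of 30 libraries. Slc25a13 exceeded Slc25a12, the aspartate-glutamate carrier of brain and muscle, at 2.64 FPKM, and Slc25a22 exceeded its paralog Slc25a18, listed in 2 of 30 libraries. Among the ATP-Mg/phosphate carriers, Slc25a25 and Slc25a23 (39.8 FPKM) lay above Slc25a24 at 0.409 FPKM. Besides Slc25a24, Slc25a31 and Slc25a18, the members below the filter were Slc25a36 at 0.623 FPKM, Slc25a53, Slc25a27, Slc25a35, the ornithine carrier Slc25a2 at 0.0767 FPKM, and Slc25a43. No member that was tested lacked a value in a library.

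All 44 members were found in the GENCODE M21 annotation on GRCm38, on 19 chromosomes, and all coordinates given for genes come from it. Slc25a29 and Slc25a47 are neighbours on chromosome 12, with 162 bases between them. Exons of 12 members, among them Slc25a25, Slc25a23, Slc25a33, Slc25a10, Slc25a11 and Slc25a37, overlap exons of a gene on the opposite strand, and those of Slc25a47 and Slc25a51 overlap one on the same strand. A stretch of 200 bases or more at 95% identity or more in another gene was found for 9 members, including Slc25a5, Slc25a37, Slc25a10 and Slc25a33. The strand setting of the quantification is not given in the sources used here, so the split of reads at these places is uncertain.

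**Figure D2:**
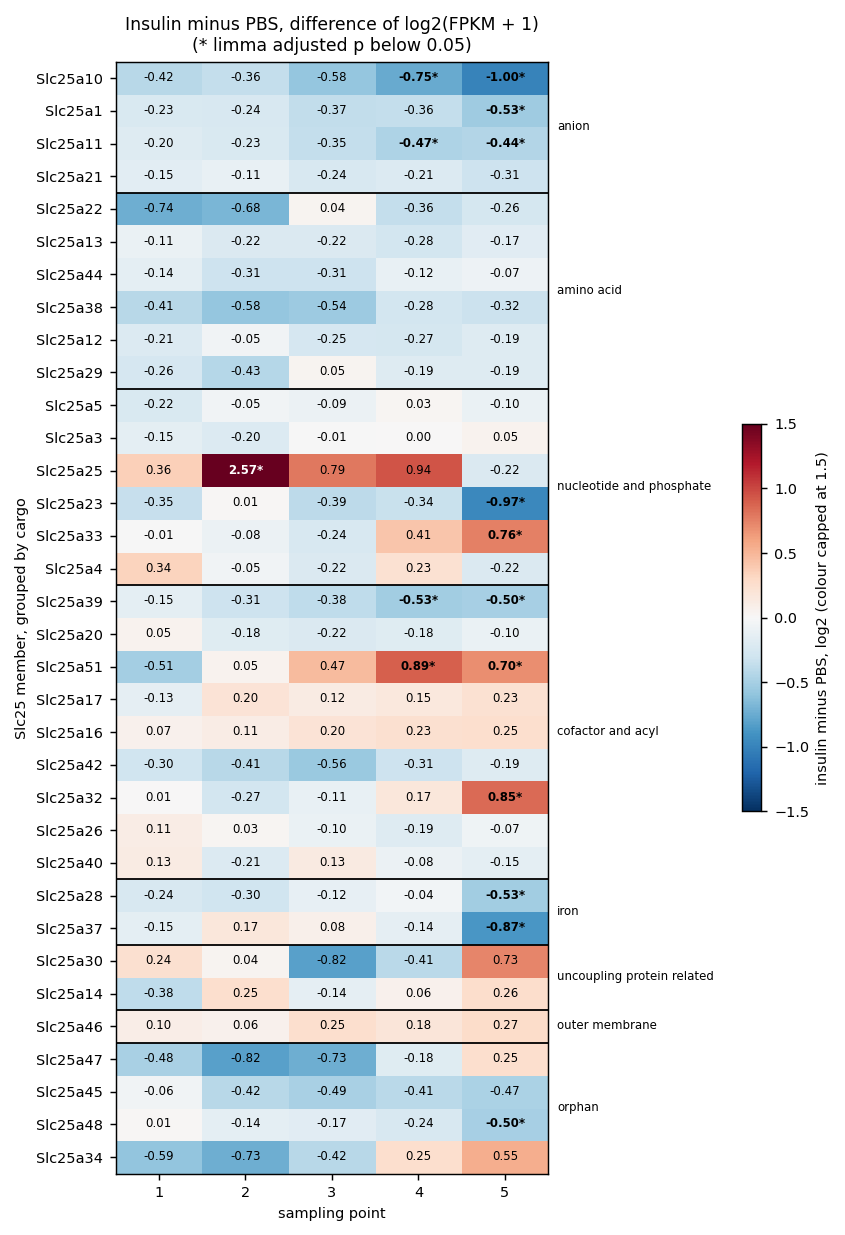
Heat map of insulin minus PBS, as differences of log2(FPKM + 1), for 34 of the 35 tested carriers (rows, by cargo) at points 1 to 5 (columns); each cell prints its value, bold with an asterisk where the limma test was passed, and the colour is capped. The largest value is 2.57 for Slc25a25 at point 2, and point 5 holds 11 of the 16 values that passed.

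The number of members that passed the test differed between points, as it did for genes in general. At point 1, 0 of the 35 passed in limma, against 0.00736% of all genes. At point 2, Slc25a25 rose and 0 members fell, where 1.35% of all genes passed, 0.618% higher and 0.736% lower. At point 3, 0 members passed in limma, where 9.45% of all genes did (2.19% higher and 7.26% lower). At point 4, 1 rose and 3 fell, against 2.82% of all genes higher and 10.4% lower (13.2% in either direction). At point 5, 3 rose and 8 fell, 31.4% of the members, against 2.96% of all genes higher and 16.1% lower (19.1% in either direction). The members' median difference was -0.15, -0.18, -0.22, -0.18 and -0.17 at points 1 to 5, beside -0.06, -0.12, -0.14, -0.14 and -0.17 for all genes.

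The balance of directions rested on how libraries were scaled, since the median of all genes lay below 0. With median-ratio scaling, which puts the all-gene median within 0.02 of 0, 1 member rose and 0 fell at point 2, where 1.52% of all genes passed, 1.1% higher and 0.419% lower. At point 3, 2 rose and 0 fell, namely Slc25a16 and Slc25a46, where 8.72% of all genes passed, 5.14% higher and 3.58% lower. At point 4, 4 rose and 1 fell, where 12.8% of all genes passed, 6.98% higher and 5.82% lower. At point 5, 8 rose and 3 fell, where 16.8% of all genes passed, 8.96% higher and 7.82% lower. The members that passed at point 5 under both scalings were Slc25a32, Slc25a33 and Slc25a51 among those higher and Slc25a10, Slc25a23 and Slc25a37 among those lower. As deposited, leaving out PBS replicate 3 left 0 members at point 4, and leaving out insulin replicate 1 or 2 left 1 there. The number there was 6 with insulin replicate 3 left out, which added Slc25a13 and Slc25a23. At point 5 it was 5 with insulin replicate 1 left out and 7 with PBS replicate 1 or 3 left out. At point 2 it was 5 with PBS replicate 1 left out.

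The insulin and PBS libraries did not overlap at all for 4, 13, 15, 12 and 16 of the 35 members at points 1 to 5, against 9.43%, 23.5%, 35.5%, 32.4% and 35.4% of all genes. At point 1 all 4 were lower in insulin, against 6.44% of all genes. At point 5, 7 of the 16 were higher in insulin and 9 lower, against 6.42% and 29% of all genes.

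**Figure D3:**
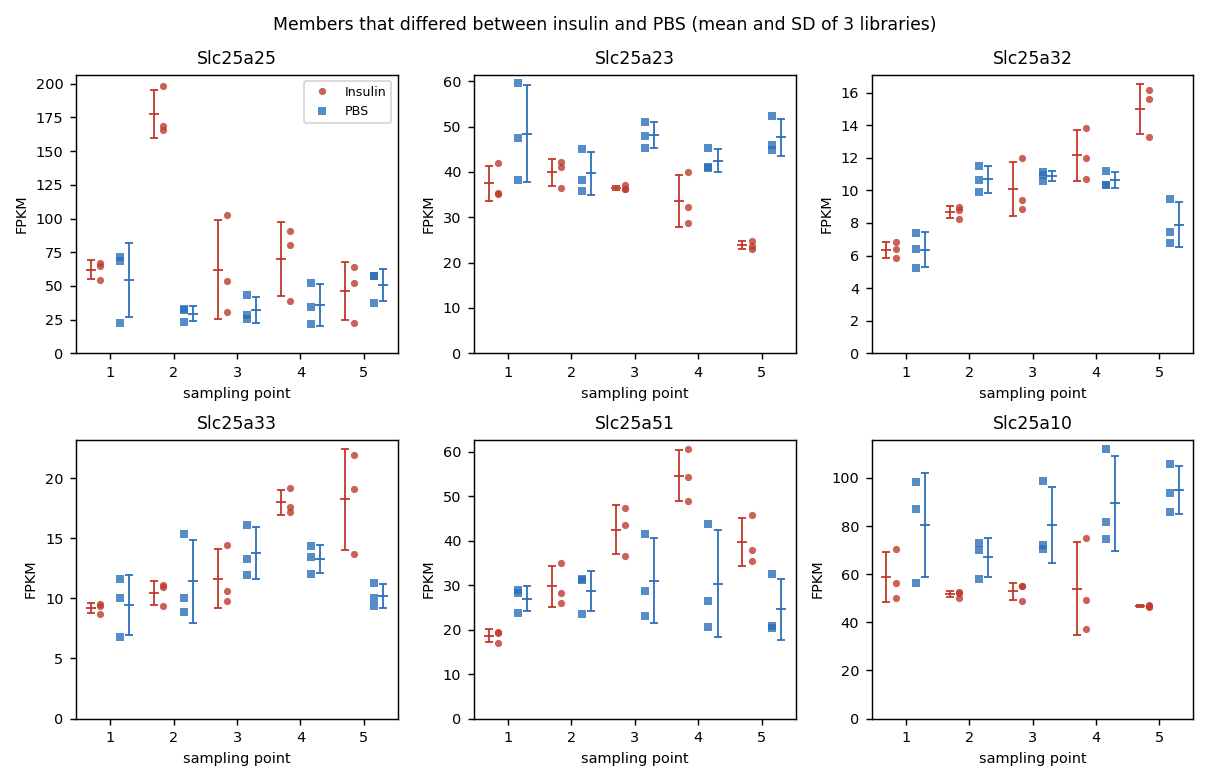
FPKM in each library at points 1 to 5 for Slc25a25, Slc25a23, Slc25a32, Slc25a33, Slc25a51 and Slc25a10, insulin beside PBS, with the mean ± SD of each group as bars. At point 2 the Slc25a25 insulin libraries lie at 166 to 198 FPKM and the PBS libraries at 23.0 to 33.0 FPKM.

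Among the carriers of nucleotides and phosphate, 6 of 9 were tested, and the ones that passed at a point were Slc25a25, Slc25a23 and Slc25a33. Slc25a25 (chromosome 2, 32414487 to 32451445, minus strand) had 166, 198 and 168 FPKM in the insulin libraries of point 2, against 23.0, 31.9 and 33.0 FPKM in the PBS libraries. The lowest insulin library thus lay far above the highest PBS library. The means were 177 ± 17.9 FPKM with insulin and 29.3 ± 5.49 FPKM with PBS (SD, n = 3 each), a difference of 2.57 ± 0.44 (SE, limma adjusted p = 0.00153), and 2.73 with median-ratio scaling (adjusted p = 0.000581). At the other points the treatments overlapped. Slc25a25 had 54.5, 67.3 and 64.7 FPKM with insulin at point 1, against 71.4, 22.6 and 68.6 FPKM with PBS. At point 3 it had 30.4, 103 and 53.3 FPKM with insulin, against 28.4, 43.2 and 25.1 FPKM with PBS (difference 0.79, limma adjusted p = 0.245). At point 4 the insulin libraries held 80.0, 38.6 and 90.9 FPKM and the PBS libraries 34.0, 21.6 and 52.1 FPKM. That difference, 0.94 ± 0.44 (SE, limma adjusted p = 0.151), was the widest of any member at point 4 and did not pass. At point 5 the values were 22.5, 52.4 and 64.3 FPKM with insulin and 57.5, 57.2 and 37.1 FPKM with PBS. The libraries of a group spread widely for this gene, with an SD of 37.0 FPKM around a mean of 62.1 FPKM in insulin at point 3, and the F test of a difference that depends on the point was not passed.

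Slc25a23, the paralogous ATP-Mg/phosphate carrier (chromosome 17, 57043711 to 57059863, minus strand), fell at point 5, where Slc25a25 did not pass. The insulin libraries held 23.7, 24.8 and 23.0 FPKM, against 44.8, 45.9 and 52.3 FPKM in the PBS libraries. All insulin libraries lay below all PBS libraries, at 23.8 ± 0.917 FPKM with insulin and 47.7 ± 4.05 FPKM with PBS (SD, n = 3 each). The difference was -0.97 ± 0.13 (SE, limma adjusted p = 5.84e-05), and -0.75 with median-ratio scaling. At point 2 the Slc25a23 difference was 0.01, with 39.9 ± 3.00 FPKM in insulin and 39.7 ± 4.78 FPKM in PBS. The dependence of the Slc25a23 difference on the point passed the F test (limma adjusted p = 0.0363), where 1.77% of all genes did. It was lost when insulin replicate 1, 2 or 3 or PBS replicate 1 or 3 was left out at all points, with adjusted p of 0.160, 0.212, 0.107, 0.105 and 0.341. The same call was also lost with no filter on low values.

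Slc25a33, which carries pyrimidine nucleotides into mitochondria (chromosome 4, 149744036 to 149774277, minus strand), rose at point 5. It had 13.7, 21.9 and 19.1 FPKM with insulin, against 9.35, 9.98 and 11.2 FPKM with PBS. Every insulin library lay above every PBS library, by 0.76 ± 0.19 (SE, limma adjusted p = 0.00725). At point 4 Slc25a33 had 19.2, 17.6 and 17.2 FPKM with insulin against 12.0, 14.3 and 13.5 FPKM with PBS, again without overlap (0.41 ± 0.19, adjusted p = 0.137), and passed there only with the median-ratio or quantile scaling (0.57 and adjusted p = 0.024 with the median-ratio one). The abundant members of the class did not pass at a point as deposited. Slc25a5 had 170, 197 and 247 FPKM in its lowest, median and highest insulin library, against 181, 214 and 240 FPKM in PBS libraries. Slc25a3 had 118, 144 and 174 FPKM in insulin libraries, against 121, 151 and 175 FPKM in PBS libraries. As deposited, the differences of Slc25a5 ran from -0.22 to 0.03 and those of Slc25a3 from -0.20 to 0.05. With median-ratio scaling Slc25a3 passed at point 5, at 0.27 ± 0.09 (limma adjusted p = 0.0366).

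Among the carriers of cofactors and acyl groups, all 10 of which were tested, Slc25a32 and Slc25a51 rose and Slc25a39 fell. Slc25a32, which carries folate or FAD (chromosome 15, 39091231 to 39112716, minus strand), had 13.3, 16.1 and 15.6 FPKM with insulin at point 5, against 7.46, 9.48 and 6.78 FPKM with PBS. The libraries did not overlap, and the difference was 0.85 ± 0.13 (SE, limma adjusted p = 0.000143), or 1.06 with median-ratio scaling. At point 2 the order was the other way, with 8.25, 8.98 and 8.78 FPKM in insulin and 10.7, 11.5 and 9.88 FPKM in PBS, but the difference of -0.27 ± 0.13 did not pass (adjusted p = 0.263). The Slc25a32 difference depended on the point (F test, limma adjusted p = 0.00367), a call that ended when insulin replicate 3 (adjusted p = 0.0767) or PBS replicate 1 (0.0815) was left out at all points. Its means in insulin were 6.36, 8.67, 10.1, 12.2 and 15.0 FPKM at points 1 to 5, and in PBS 6.34, 10.7, 10.9, 10.6 and 7.91 FPKM. The means of the treatments were thus furthest apart at point 5.

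Slc25a51, the mitochondrial NAD carrier (chromosome 4, 45395923 to 45408766, minus strand), rose at points 4 and 5. At point 4 it had 49.0, 54.4 and 60.5 FPKM with insulin, against 26.5, 43.8 and 20.7 FPKM with PBS (0.89 ± 0.22, limma adjusted p = 0.0118). At point 5 it had 35.5, 38.0 and 45.8 FPKM with insulin, against 20.8, 32.4 and 20.4 FPKM with PBS (0.70 ± 0.22, adjusted p = 0.0292). The libraries were apart at both points, although the second PBS replicate came close. The point 4 call ended without PBS replicate 3 (adjusted p = 0.0883) and in the fit of the 6 libraries of the point alone (0.110). The point 5 call ended when insulin replicate 1 (adjusted p = 0.0553), insulin replicate 3 (0.106), PBS replicate 1 (0.0960) or PBS replicate 3 (0.124) was left out. It also ended with no filter on low values and with the 6 libraries of the point alone. At point 1 the order of Slc25a51 was reversed, with 17.0, 19.3 and 19.6 FPKM in insulin and 28.9, 28.3 and 23.7 FPKM in PBS. These libraries did not overlap either, and the difference of -0.51 ± 0.22 did not pass (adjusted p = 0.582).

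Slc25a39, required for glutathione import (chromosome 11, 102402985 to 102407946, minus strand), fell at the same points at which Slc25a51 rose. It had 129, 134 and 183 FPKM with insulin at point 4, against 173, 208 and 265 FPKM with PBS (-0.53 ± 0.16, limma adjusted p = 0.0372). At point 5 it had 146, 144 and 155 FPKM with insulin, against 241, 206 and 188 FPKM with PBS (-0.50 ± 0.16, adjusted p = 0.0359). The libraries overlapped at point 4 and were apart at point 5. Both Slc25a39 calls ended with median-ratio scaling (-0.36 and -0.28, adjusted p = 0.123 and 0.217). The point 4 call also ended when insulin replicate 1 (adjusted p = 0.161) or 2 (0.138) or PBS replicate 2 (0.0630) or 3 (0.218) was left out. The point 5 call ended when insulin replicate 1 (0.104), 2 (0.0757) or 3 (0.0608) or PBS replicate 1 (0.129) or 2 (0.0655) was left out, each an adjusted p. The 2 coenzyme A carriers differed in sign over all points, as given with the mean over points. Slc25a20, which brings acylcarnitines into the matrix for oxidation, had 78.9, 89.8 and 110 FPKM in its lowest, median and highest insulin library and 83.2, 93.7 and 115 FPKM in PBS libraries. It passed at no point, with differences from -0.22 to 0.05. Slc25a17 (peroxisomal), Slc25a26 (S-adenosylmethionine) and Slc25a40 passed at no point as deposited. With median-ratio scaling Slc25a17 rose at point 5 (0.44 ± 0.13, limma adjusted p = 0.0239). Slc25a16 rose under that scaling at points 3, 4 and 5, by 0.37, 0.39 and 0.47 (adjusted p = 0.0130, 0.00723 and 0.00161).

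Of the 4 di- and tricarboxylate carriers, 3 fell at point 5. All 4 had negative differences at every point, and with median-ratio scaling all but Slc25a21 at point 2, where its difference was 0.01. Of all genes 61.6%, 68.5%, 68%, 66.7% and 68.8% had negative differences at points 1 to 5 as deposited. With median-ratio scaling 49.5%, 49.8%, 51.3%, 51.7% and 50.3% of all genes did. The share of all genes with negative differences at every point was not computed. Slc25a10, the dicarboxylate carrier that exchanges malate or succinate for phosphate (chromosome 11, 120491840 to 120499187, plus strand), had 46.2, 47.2 and 46.9 FPKM with insulin at point 5, against 93.9, 85.7 and 106 FPKM with PBS. The insulin libraries were close together and far below every PBS library. The difference was -1.003 ± 0.21 (SE, limma adjusted p = 0.0024), the widest of any member at that point as deposited. With median-ratio scaling it was -0.78, and Slc25a32, Slc25a33, Slc25a30 and Slc25a51 lay further from 0. At point 4 Slc25a10 had 49.4, 37.3 and 75.2 FPKM with insulin, against 81.7, 74.5 and 112 FPKM with PBS, which overlapped (-0.75 ± 0.21, adjusted p = 0.0201). That call ended when insulin replicate 1 (adjusted p = 0.0761), insulin replicate 2 (0.137) or PBS replicate 3 (0.125) was left out. It also ended with the 6 libraries of the point alone (limma adjusted p = 0.151). Over the points the mean of Slc25a10 in insulin lay between 46.8 and 58.9 FPKM, and in PBS between 67.0 and 95.1 FPKM.

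Slc25a11, the oxoglutarate-malate carrier that works beside Slc25a13 in the malate-aspartate shuttle, had 20.5, 18.3 and 24.9 FPKM with insulin at point 4, against 29.6, 25.9 and 33.7 FPKM with PBS (-0.47 ± 0.13, limma adjusted p = 0.0201). At point 5 it had 22.2, 22.6 and 25.8 FPKM with insulin, against 31.0, 30.3 and 35.4 FPKM with PBS (-0.44 ± 0.13, adjusted p = 0.0208). Slc25a1, which exports citrate for cytosolic acetyl-CoA, had 30.2, 34.7 and 33.5 FPKM with insulin at point 5, against 52.3, 40.8 and 50.7 FPKM with PBS (-0.53 ± 0.18, adjusted p = 0.0372). The insulin libraries of Slc25a11 and Slc25a1 lay below the PBS libraries at each of these points. With median-ratio scaling the differences were -0.31 and -0.22 for Slc25a11 at points 4 and 5 (adjusted p = 0.109 and 0.234) and -0.31 for Slc25a1 at point 5 (adjusted p = 0.144). The Slc25a11 call of point 4 also ended when insulin replicate 1 (adjusted p = 0.0746) or 2 (0.116) or PBS replicate 1 (0.0519) or 3 (0.116) was left out. Its point 5 call ended when insulin replicate 1 (adjusted p = 0.0867) or 2 (0.0524) or PBS replicate 3 (0.0988) was left out. The Slc25a1 call ended when insulin replicate 1 (adjusted p = 0.134) or 3 (0.0702) or PBS replicate 1 (0.109) or 3 (0.118) was left out. The oxodicarboxylate carrier Slc25a21 passed at no point.

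Of the 6 amino acid carriers tested, 0 passed at a point in limma. Slc25a22, the glutamate carrier, had the widest difference of any member at point 1, with 90.8, 135 and 52.7 FPKM in insulin and 127, 173 and 138 FPKM in PBS. The libraries overlapped, and the difference of -0.74 ± 0.37 did not pass (limma adjusted p = 0.62). Slc25a13 had 87.3, 101 and 114 FPKM in its lowest, median and highest insulin library, against 102, 113 and 131 FPKM in PBS libraries, with differences from -0.28 to -0.11. Slc25a38, the glycine carrier that supplies haem synthesis, had 4.03, 5.84 and 7.91 FPKM in insulin libraries, against 6.18, 7.69 and 12.7 FPKM in PBS libraries. The insulin and PBS libraries of Slc25a38 were apart at points 1, 2 and 3. The basic amino acid carrier Slc25a29, the neighbour of Slc25a47, ranged from 0.201 to 1.33 FPKM in insulin libraries and from 0.415 to 1.75 FPKM in PBS libraries.

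Both mitoferrins, which bring iron into the matrix, fell at point 5. Slc25a37, mitoferrin 1 and the main form of erythroid cells, had 2.75, 2.09 and 2.96 FPKM with insulin, against 5.75, 5.75 and 5.18 FPKM with PBS. The libraries did not overlap (-0.87 ± 0.18, limma adjusted p = 0.00226, and -0.70 with adjusted p = 0.00939 under median-ratio scaling). Slc25a28, mitoferrin 2, had 4.46, 3.91 and 5.54 FPKM with insulin, against 7.75, 6.29 and 7.20 FPKM with PBS. These libraries were also apart, and the difference of -0.53 ± 0.17 (adjusted p = 0.0302) was -0.34 with median-ratio scaling (adjusted p = 0.131). The Slc25a28 call ended when insulin replicate 1 (adjusted p = 0.0959), insulin replicate 2 (0.105), PBS replicate 1 (0.0911) or PBS replicate 3 (0.0855) was left out.

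The summed level of erythroid cell markers was also apart at point 5. Of 7 erythroid markers, 2 lay under 1 FPKM in every library, and at point 5 the summed level was 219 to 262 FPKM with insulin and 311 to 458 FPKM with PBS. Alas2, the erythroid enzyme that starts haem synthesis, fell at point 5, with 17.4 ± 2.39 FPKM in insulin and 27.7 ± 3.71 FPKM in PBS (SD, n = 3 each; -0.64 ± 0.16, limma adjusted p = 0.00752), and was the only one of the 5 tested that passed, or 0 of 5 with median-ratio scaling. Their part in the result was not tested, and in whole liver fewer cells of a type and less RNA per cell cannot be told apart. Of 6 Kupffer cell and macrophage markers 1 fell at point 5 (Csf1r), and their sums overlapped at 53.0 to 73.6 FPKM with insulin and 69.4 to 84.2 FPKM with PBS. Of 6 sinusoidal endothelial markers 3 fell (Stab2, Kdr and Oit3), with sums of 37.5 to 49.0 FPKM with insulin and 54.9 to 59.4 FPKM with PBS. With median-ratio scaling 0 of the 6 in each list passed at point 5. Markers of stellate cells, cholangiocytes, and adipocytes or muscle passed at point 5 in 0 of 6, 0 of 3 and 0 of 1 tested. With median-ratio scaling 1 of the 6 stellate cell markers rose there. The adipocyte and muscle sums were still apart at point 5, at 7.92 to 12.6 FPKM with insulin and 15.1 to 16.3 FPKM with PBS. They were also apart at points 3 and 4 and overlapped at points 1 and 2. The stellate cell and cholangiocyte sums overlapped at point 5. At point 4, where 4 carriers passed, 3 of the 6 Kupffer cell and macrophage markers fell (Clec4f, Cd5l and Csf1r, with a median of -0.57 over the list), and 2 of the 6 did with median-ratio scaling. Their sums were apart there, at 69.5 to 84.1 FPKM with insulin and 92.5 to 184 FPKM with PBS. The sinusoidal endothelial sums were also apart at point 4, at 43.1 to 55.6 FPKM with insulin and 59.9 to 73.5 FPKM with PBS, and 1 of the 6 markers fell (Clec4g), or 0 with median-ratio scaling. Of the 3 cholangiocyte markers tested, Sox9 fell at point 4 under both scalings. The shares of all genes that fell were 10.4% at point 4 and 16.1% at point 5 as deposited. With median-ratio scaling they were 5.82% and 7.82%. Of the 10 hepatocyte markers, Tat rose at points 4 and 5 as deposited and 0 fell. With median-ratio scaling 1 rose at point 4 and 4 rose at point 5, and 0 fell. The shares of all genes that rose were 2.82% and 2.96% as deposited, and 6.98% and 8.96% with median-ratio scaling. The part of these cell types in the carrier values was not tested.

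**Figure D4:**
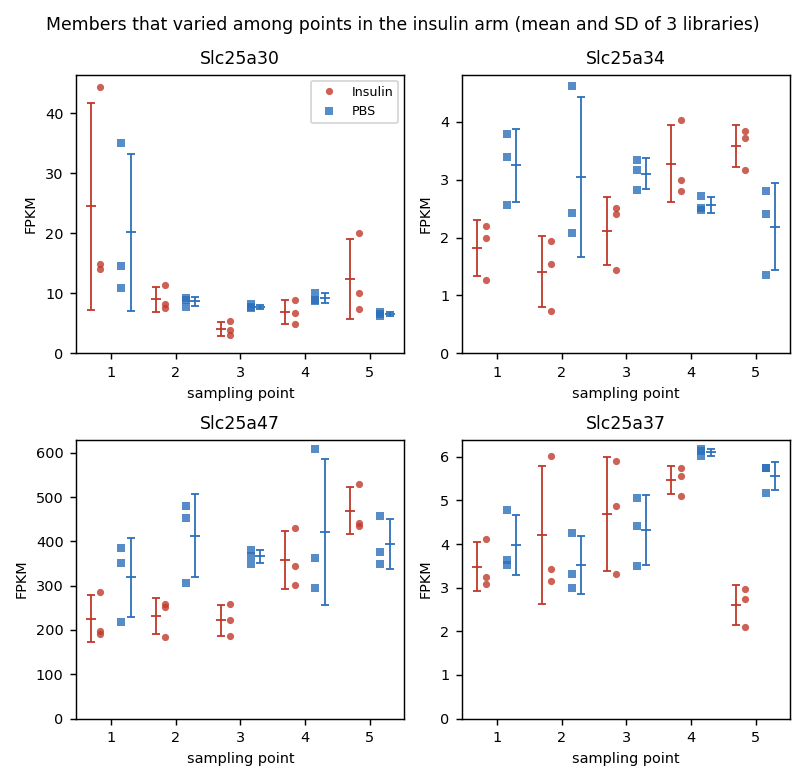
FPKM in each library at points 1 to 5 for Slc25a30, Slc25a34, Slc25a47 and Slc25a37, insulin beside PBS, with the mean ± SD of each group as bars. For Slc25a34 the insulin libraries lie below the PBS libraries at points 1 to 3 and above them at points 4 and 5.

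Of the 4 tested carriers listed here without a substrate, Slc25a48 passed at a point. It had 2.31, 3.25 and 2.68 FPKM with insulin at point 5, against 4.12, 5.15 and 3.69 FPKM with PBS, which were apart (-0.50 ± 0.15, limma adjusted p = 0.0249). With median-ratio scaling the difference was -0.33 (adjusted p = 0.0932), and the call also ended without insulin replicate 1 or 3 or PBS replicate 2 (adjusted p = 0.123, 0.0615 and 0.113). Slc25a47, the most abundant carrier, was lower without overlap at points 2 and 3. It had 185, 258 and 252 FPKM with insulin at point 2, against 306, 452 and 481 FPKM with PBS (-0.82 ± 0.24, adjusted p = 0.0836). At point 3 it had 186, 258 and 222 FPKM with insulin, against 350, 367 and 381 FPKM with PBS (-0.73 ± 0.24, adjusted p = 0.055). Neither passed, and at point 5 the difference was 0.25 with overlapping libraries.

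Slc25a34 was apart at all 5 points and passed at none of them as deposited. The share of all genes apart at all 5 points was not computed. At point 4 the gap was narrow, with 2.80 FPKM in the lowest insulin library and 2.72 FPKM in the highest PBS library. It had 1.55, 0.735 and 1.94 FPKM with insulin at point 2, against 2.08, 4.62 and 2.43 FPKM with PBS (-0.73 ± 0.22, limma adjusted p = 0.0925). At point 5 it had 3.73, 3.84 and 3.17 FPKM with insulin, against 1.34, 2.41 and 2.80 FPKM with PBS (0.55 ± 0.22, adjusted p = 0.0795). With median-ratio scaling it passed at point 5, at 0.72 ± 0.20 (limma adjusted p = 0.0154). The sign differed between these points, and the differences at points 1, 3 and 4 were -0.59, -0.42 and 0.25. The F test of a difference that depends on the point was passed by Slc25a34 with median-ratio scaling (adjusted p = 0.0142) and not with the values as deposited.

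Slc25a30, a kidney carrier related to the uncoupling proteins, had the widest difference of any member at point 3 as deposited. It had 3.01, 5.35 and 3.83 FPKM with insulin, against 7.47, 7.67 and 8.13 FPKM with PBS. All insulin libraries were lower, but the difference of -0.82 ± 0.37 did not pass (limma adjusted p = 0.146). With median-ratio scaling it was -0.67, and that of Slc25a25 was wider at 0.96. At point 1 Slc25a30 had 44.4, 15.0 and 14.1 FPKM with insulin, against 35.1, 10.8 and 14.6 FPKM with PBS. The first replicate was the high one in both treatments there. Slc25a14, the other relative tested, averaged 0.842 FPKM and passed at no point. Slc25a46, an outer membrane protein of mitochondrial dynamics, lay above PBS without overlap at points 3, 4 and 5, with differences of 0.25, 0.18 and 0.27, and passed at none of them as deposited. With median-ratio scaling it passed at all 3, with adjusted p of 0.00887, 0.0262 and 0.00189.

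Averaged over all 5 points, the mean difference passed the test for 19 of the 35 members (54.3%), where 45.5% of all genes passed. Of these, 4 were higher and 15 lower in insulin, against 7.89% of all genes higher and 37.6% lower. With median-ratio scaling 7 were higher and 9 lower, where 40.4% of all genes passed, 20.3% higher and 20.1% lower. The higher ones were Slc25a25 (0.89 ± 0.20), Slc25a51 (0.32 ± 0.10), the coenzyme A related carrier Slc25a16 (0.17 ± 0.04) and Slc25a46 (0.17 ± 0.05), and median-ratio scaling added Slc25a17, Slc25a32 and Slc25a33. The lowest was Slc25a10 at -0.62 ± 0.09 (limma adjusted p = 1.73e-05), followed by Slc25a38 at -0.43 ± 0.09 and Slc25a23 at -0.41 ± 0.06. The coenzyme A carrier Slc25a42, at -0.36 ± 0.09, thus had the opposite sign to Slc25a16. A mean over the points does not show that the points were alike. Slc25a25 passed at point 2 alone, and Slc25a51 had a lower mean in insulin than in PBS at point 1. The differences of Slc25a32 and Slc25a23 depended on the point. All 4 di- and tricarboxylate carriers, 4 of the 6 amino acid carriers and 3 of the 4 carriers without a substrate were among the lower ones. The calls of Slc25a13, Slc25a12, Slc25a44, Slc25a21, Slc25a28 and Slc25a48 ended with median-ratio scaling. With one replicate number left out at all points, the call of Slc25a51 ended for insulin replicate 3 (adjusted p = 0.103) and PBS replicate 3 (0.0986), that of Slc25a47 for insulin replicate 1 (0.0730) and that of Slc25a45 for PBS replicate 3 (0.0652). Those of Slc25a12, Slc25a21, Slc25a28 and Slc25a48 ended for 2 to 4 of the 6 replicate numbers, insulin replicate 1 among them each time (adjusted p = 0.192, 0.179, 0.0943 and 0.0591). With the libraries of a treatment that share a replicate number taken as a random effect, the calls of Slc25a48, Slc25a12 and Slc25a21 also ended (adjusted p = 0.0567, 0.0525 and 0.0647).

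**Figure D5:**
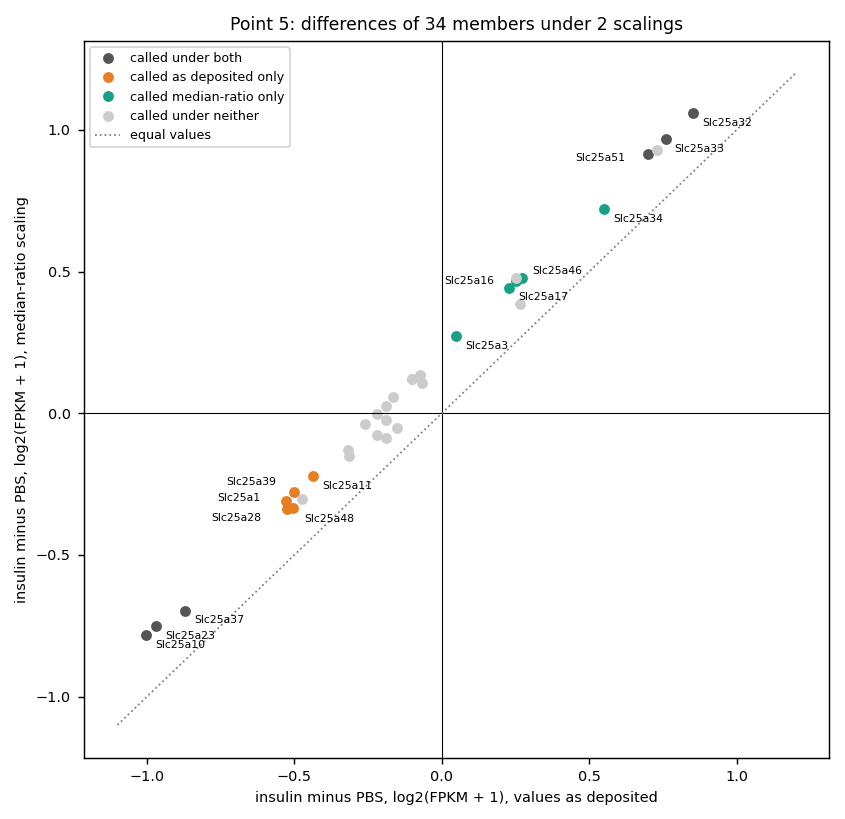
Insulin minus PBS at point 5 with median-ratio scaling against the values as deposited, on the log2 scale, for 34 of the 35 tested carriers, coloured by the scaling under which the test was passed; the dotted line marks equal values. Slc25a32, Slc25a33, Slc25a51, Slc25a10, Slc25a23 and Slc25a37 passed under both scalings.

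Within the insulin libraries, 9 of the 35 members varied among the points in the F test, where 13.3% of all genes did. They were Slc25a32 (limma adjusted p = 7.80e-06), Slc25a51, Slc25a33, Slc25a30, Slc25a23, Slc25a47, Slc25a34, Slc25a37 and Slc25a25. Within the PBS libraries Slc25a32 was the only one (adjusted p = 0.0017), where 3.27% of all genes varied, and that call ended without PBS replicate 3 (adjusted p = 0.0848). With insulin replicate 3 left out, 5 members varied within the insulin libraries. With an insulin replicate left out, the calls of Slc25a25 (replicate 1 or 3), Slc25a33 (3), Slc25a37 (2 or 3), Slc25a34 (1 or 2), Slc25a23 (2) and Slc25a47 (1 or 3) ended, at adjusted p of 0.0532 to 0.132. That a member varied in one treatment and not in the other does not show a difference between the treatments, and the test of that difference was passed by Slc25a32 and Slc25a23 alone. With median-ratio scaling, where 2.42% of all genes passed that test, 5 members did, with Slc25a51, Slc25a33 and Slc25a34 added.

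The shapes differed among the 9. Slc25a51 had insulin means of 18.6, 29.7, 42.5, 54.6 and 39.8 FPKM at points 1 to 5, beside PBS means of 27.0, 28.7, 31.0, 30.3 and 24.5 FPKM. Slc25a47 had insulin means of 225, 232, 222, 359 and 469 FPKM, beside PBS means of 319, 413, 366, 422 and 395 FPKM. Slc25a30 had insulin means of 24.5, 9.02, 4.06, 6.85 and 12.5 FPKM, beside PBS means of 20.2, 8.63, 7.76, 9.21 and 6.51 FPKM. In insulin Slc25a51 was thus highest at point 4, Slc25a47 at point 5 and Slc25a30 at point 1.

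Enzymes that work beside the carriers were listed as 16 shuttle partners, all tested. At point 3, 2 rose and 1 fell, at point 4, 1 rose and 3 fell, and at point 5, 1 rose and 2 fell, with 0 at points 1 and 2. The shares of all genes that passed at points 3, 4 and 5 were 9.45%, 13.2% and 19.1%. With median-ratio scaling, 2 partners passed as higher at each of points 3, 4 and 5, beside 1, 2 and 2 that passed as lower. Their median difference was -0.24 at point 3, -0.19 at point 4 and -0.08 at point 5, beside -0.14, -0.14 and -0.17 for all genes. The cytosolic aspartate aminotransferase Got1 rose, with 428 ± 66.3 FPKM in insulin and 183 ± 61.6 FPKM in PBS at point 5 (SD, n = 3 each; 1.27 ± 0.25, limma adjusted p = 0.00192). Its mitochondrial counterpart Got2 fell at the same point, with 115 ± 9.44 FPKM in insulin and 159 ± 11.4 FPKM in PBS (-0.47 ± 0.13, adjusted p = 0.0132). Pyruvate carboxylase, Pcx, fell at points 3, 4 and 5 by 0.60, 0.56 and 0.62. The ATP citrate lyase Acly, which uses the citrate that Slc25a1 exports, rose at point 3 by 0.55 (adjusted p = 0.00832).

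Of other transporters of the mitochondrial membranes 19 were tested. At point 5, 0 rose and 5 fell, namely Smdt1, Sfxn5, Abcb10, Micu2 and Letm1, with a median of -0.29 over the list, beside -0.17 for all genes. Of all genes 2.96% rose and 16.1% fell there. With median-ratio scaling 1 rose and 1 fell. Carrier proteins reach the inner membrane by the TIM22 route, of which 13 genes were tested, and 0 of them rose and 3 fell at point 5, with a median of -0.26. These were Timm13, a chaperone between the membranes, Tomm40, the outer membrane pore, and Timm22, the inner membrane insertase. Timm13 had 17.1 ± 1.98 FPKM in insulin and 37.3 ± 6.70 FPKM in PBS (SD, n = 3 each; -1.07 ± 0.19, limma adjusted p = 0.000664). With median-ratio scaling 1 rose and 2 fell. Family members under other symbols were Ucp2, Mtch1 and Mtch2, of which Mtch1 fell at points 3, 4 and 5 by 0.53, 0.40 and 0.44, and with median-ratio scaling at point 3 only.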

How the data were processed

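Per the labels' protocols, the libraries were poly(A) RNA of the left liver lobe. The deposited values were FPKM per gene, made by the authors with HISAT2 2.1.0, SAMtools 1.9 and StringTie 2.0.3 on GRCm38, per the submitters' processing notes. The strand setting and the annotation behind the values were not given. Every sample column carried a sample's title. A cell with no value (32.2% of cells) was read as 0 FPKM. FPKM are not counts, so no count test was run. Depth was estimated from the steps of low values, of which 39.3% to 47.9% fell within 0.05 of a whole number of reads, so no reads were recovered and the estimate is rough.

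Groups came from the sample titles. The tested genes reached 1 FPKM in 3 of 30 libraries. Their log2(FPKM + 1) values entered limma 3.58.1 (R 4.3.3) with 10 group means and a trend of the variance with intensity, leaving 20 residual degrees of freedom. Two-sided p-values were adjusted over all 13589 genes (Benjamini-Hochberg) and read against 0.05. A member counted among the 35 is not reported here by name and is not drawn. Lists are described by counts and medians, with no list test. Members and lists were chosen with earlier results of these data known. By rule, each member that passed at a point or in the F test of treatment by point, and the widest difference at each point, is given by library, the 10 most abundant by level, and other genes where they passed. Slc25a13, Slc25a20, Slc25a34, Slc25a38, Slc25a47 and other members were added to show their class. The fit was tested on simulated data. The alternatives were a smaller pseudocount (0.1), dropping the filter, requiring a mean of 5 FPKM, median-ratio and quantile scaling, a replicate block, series (the libraries of a treatment with 1 replicate number) or lane as a random effect, a fit of the 6 libraries of a point, and each replicate left out in turn, as 1 library in the test of a point and at all 5 points in the other tests. The lane alternative was chosen after seeing the data. Sequences came from RefSeq (GRCm38.p6).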

Additional observations from a re-analysis of the deposited data

Results flagged for a closer look

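The difference between insulin and PBS depended on the sampling point for 2 of the 35 tested carriers, which marks them for a closer look. For Slc25a32 the limma F test of that dependence had an adjusted p of 0.00367, with a difference of -0.27 ± 0.13 at point 2 and 0.85 ± 0.13 at point 5 (SE, n = 3 per group). For Slc25a23 the adjusted p was 0.0363, with a difference of 0.01 ± 0.13 at point 2 and -0.97 ± 0.13 at point 5. The share of all genes that passed this test was 1.77%. The Slc25a32 call ended when insulin replicate 3 or PBS replicate 1 was left out. That of Slc25a23 ended with no filter on low values, and when insulin replicate 1, 2 or 3 or PBS replicate 1 or 3 was left out.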

How the results depend on the processing

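The 38 named differences of single members kept their direction in all 545 alternatives, and 448 of these left the call as it was. These differences were picked because they passed or were the widest at a point. The alternatives reuse the same libraries, so a kept direction is little support. An F test has no direction, and the calls of the 12 named ones were unchanged in 146 of 166 alternatives. The number of members that passed moved by more than 1.5 times as follows, and the cause was not tested. At point 3 it was 2 with the filter at a mean of 5 FPKM, 2 with median-ratio and 2 with quantile scaling, 1 with series as a random effect and 4 with the 6 libraries of the point alone, against 0. With the 6 libraries alone it was 0 at point 4 and 5 at point 5, and with no filter it was 7 at point 5. For the dependence on the point it was 1 with no filter, 5 with either scaling, and 4 with series or lane as a random effect, against 2. The 6 libraries alone ended every call of point 4 and those of Slc25a1, Slc25a11, Slc25a28, Slc25a39, Slc25a48 and Slc25a51 at point 5. Dropping the filter ended the calls of Slc25a1, Slc25a28, Slc25a39 and Slc25a51 at point 5 and of Slc25a39 at point 4. Same-numbered libraries of the treatments correlated at r of -0.111 to 0.122 over 15 pairs, 1 of them over 0.1, and 5 of 15 insulin libraries correlated best with their own number, so the numbers were not taken to pair insulin with PBS libraries. Within insulin, the libraries numbered 1 correlated across the points at r of 0.168 to 0.242 in all 10 pairs. The fit with series as a random effect allows for this only in part, with a shared correlation of 0.111 for all series. With the replicate block the counts were 0, 2, 6, 5 and 13 at points 1 to 5, 22 for the mean over points and 4 for the dependence on the point. With each replicate number left out in turn, the counts ran from 0 to 0 at point 1, 1 to 5 at point 2, 0 to 0 at point 3, 0 to 6 at point 4, 5 to 9 at point 5, 14 to 22 for the mean, 0 to 3 for the dependence on the point, 5 to 9 within insulin and 0 to 2 within PBS. Depth is known only roughly and entered no test, so the number of reads behind members under 1 FPKM is uncertain.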
